A study of Homo sapiens with 6 samples.

Results

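The genes described here are 58 regulators of mitosis: the kinases and cyclins that drive entry into division, the spindle checkpoint, the kinetochore, the spindle and the machinery of cytokinesis. They were chosen by name, with earlier results of these data known. Tubulins, condensin and the kinesins other than the kinetochore motor CENPE were left aside. All 58 were found by symbol among the 26364 genes of the authors' deposited table. The samples were cultures of REH, an established human line from an acute lymphoblastic leukaemia of B-cell precursors, transduced with lentiviral particles. In 3 cultures the virus carried a short hairpin RNA against STAT3 (shSTAT3), and in the other 3 a scramble hairpin. Every culture was selected with puromycin for 3 days and cleared of dead cells before RNA was taken, and the 3 replicates of each group came from independent experiments. STAT3 is a transcription factor downstream of cytokine receptors, and the comparison asks which transcripts differ when it is reduced. How many hairpin sequences were used is not given in the sources used here, and other effects of a hairpin cannot be told apart from those of losing STAT3.

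Dividing cells make most of these transcripts in late S, G2 and M phase and degrade or repress them in G1. Cyclin B with CDK1 starts mitosis, Aurora and Polo-like kinases build the spindle, and the kinetochore ties chromosomes to it. The checkpoint holds back the anaphase-promoting complex (APC/C) until every chromosome is attached, after which separase opens the sister chromatids and the cell divides. Their promoters commonly hold a CHR (cell cycle genes homology region), bound by MuvB complexes, and CCAAT boxes, bound by the factor NF-Y. MuvB joins the pocket proteins and E2F4 in the repressing DREAM complex, and joins B-MYB and FOXM1 when the genes are active.

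For each gene the table has a mean normalized count (reads over size factors, all 6 libraries together), a log2 fold change and p-values before and after adjustment, but no value per library. A negative fold change is read here as lower in shSTAT3, because that of STAT3 itself was −1.75 per the authors' deposited table, with 29.8% of the scramble level left (adjusted p = 7.78e-74). STAT3 is therefore no independent check of the labels. Genes with an adjusted p (12061) are called tested, and those with an adjusted p under 0.05 are called lower or higher. Depth was similar across libraries, with size factors read from single-read genes of 0.935 to 1.13 and 1.15e+07 normalized counts a library on average, and 1 library held 363 of the 1353 genes with a single read, against 164 to 240 in each of the other 5. All 58 members were tested, with means of 133 to 9400 normalized counts per the authors' deposited table, and none was among the 74 genes without a p despite a fold change. The myeloid markers LYZ, S100A8 and S100A9 were among those 74, and why their p is missing is not given in the sources used here. B-cell precursor markers were abundant, with 12 of 13 tested at means of up to 20516 normalized counts per the authors' deposited table, and VPREB1 at 0. Of the 12, 6 were called lower (50%) and 2 higher, against 23.2% and 21.3% of all tested genes. CD79A was at 0.63, RAG2 at −0.52 and PAX5 at 0.32 per the authors' deposited table. Of the markers of other cell types, CD3D, CD3G, EPCAM, KRT18, COL1A2 and DCN were at 0 per the authors' deposited table. Of 5 T-cell markers listed TRAC was not found by symbol, and the 4 found summed to 0.664 normalized counts. The 7 myeloid and the 7 epithelial and fibroblast markers summed to 2473 and 858 normalized counts per the authors' deposited table. MPO with 2330 and PDGFRB with 806 made up most of those sums, and CSF1R, COL1A1 and PDGFRB were called lower per the authors' deposited table. The part of these markers in the results below was not tested.

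Of the 58 mitotic genes 57 were lower in the shSTAT3 cells and 1, BUB3, was higher, against 23.2% of all tested genes called lower and 21.3% called higher per the authors' deposited table. The members' median log2 fold change was −0.92, that is 53.0% of the scramble level, and the quartiles were −1.08 and −0.71, while the median of all tested genes was 0.0027. At least a 2-fold fall was reached by 24 members (41.4%), against 2.87% of tested genes. Another 26 fell by 1.5- to 2-fold and 7 by less than 1.5-fold, so that 50 fell at least 1.5-fold, against 10.4% of tested genes. The fold changes ran from −2.19 for HMMR to 0.27 for BUB3, with standard errors, worked out from each fold change and its p, between 0.069 and 0.18 (median 0.097). The difference between HMMR and every other member was outside their 95% intervals. Close neighbours in the order are not: CENPA, CDC20 and MYBL2, at −1.01, −1.01 and −1.004 per the authors' deposited table, differed by far less than their errors. In bulk RNA, fewer cells in G2 and mitosis and less of these transcripts per cell cannot be told apart.

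**Figure D1:**
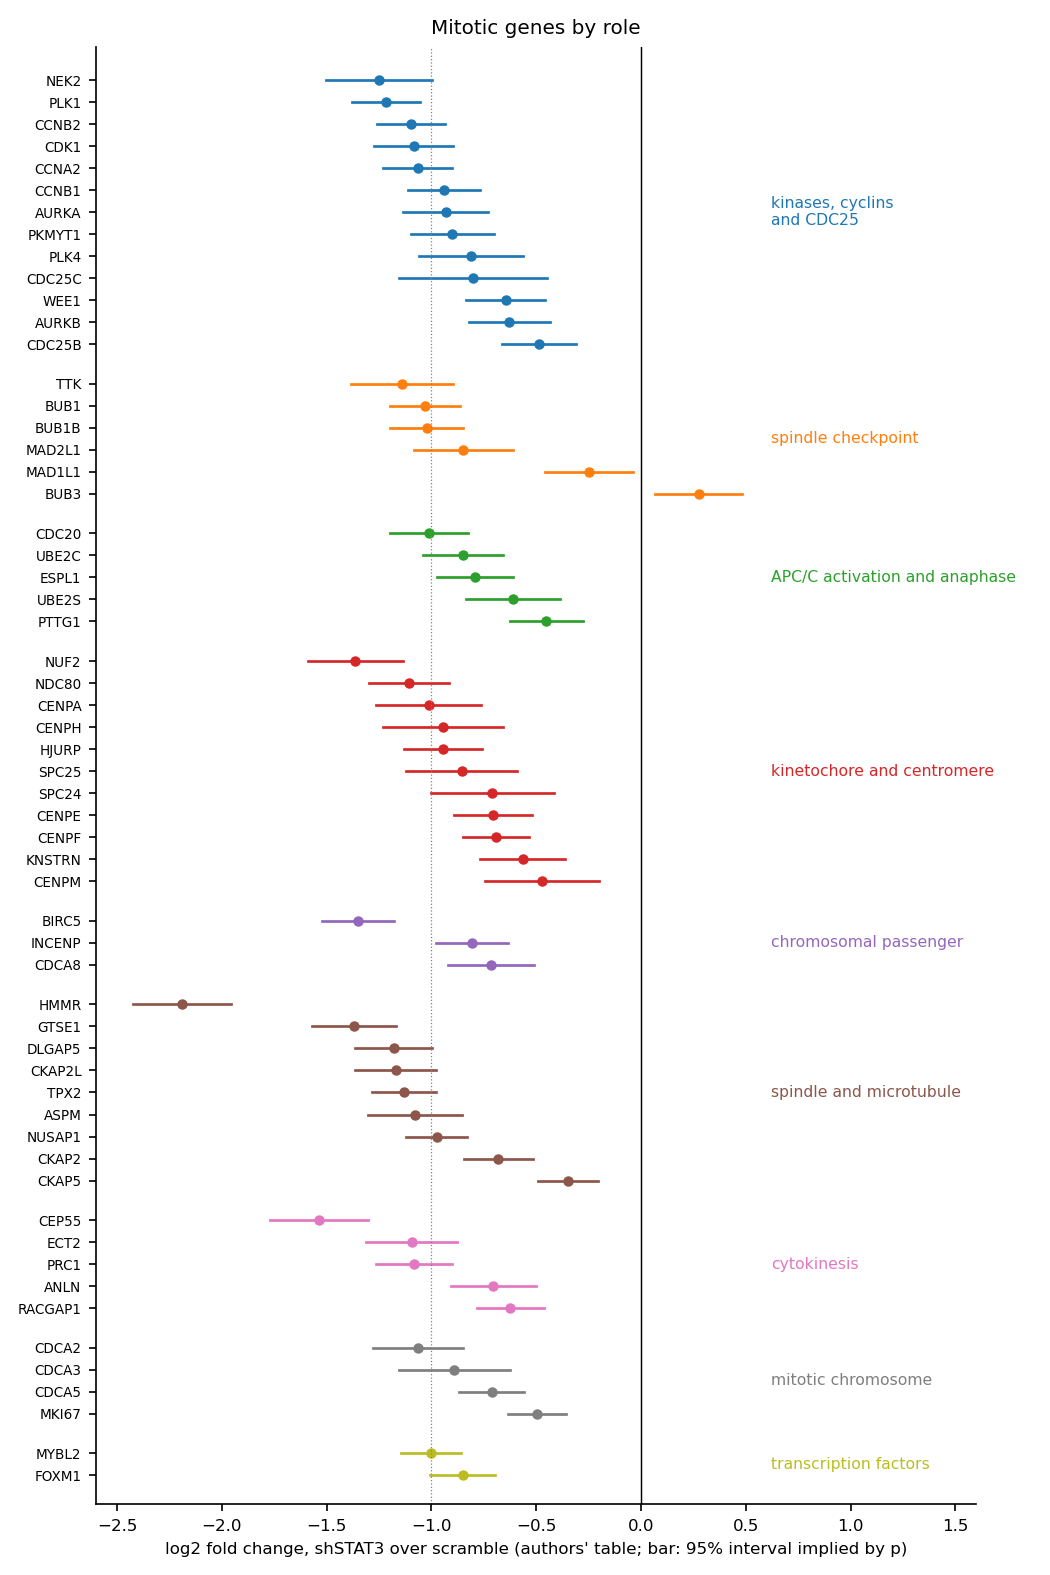
Log2 fold change of each of the 58 mitotic genes, shSTAT3 over scramble, as points with 95% intervals implied by the fold change and p, grouped by role, with a dotted line at a 2-fold fall. All but BUB3 lie left of 0, HMMR stands apart at −2.19, and MAD1L1 and CKAP5 lie closest to 0 among those that fell.

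Promoter windows of RefSeq (GRCh38.p14, 250 bases before to 50 after each annotated start) matched 45 of the 58 members and were scanned on both strands for 4 motifs. The CHR letters TTTGAA or TTCGAA stood in 33 of the 45 (73.3%), against 19.5% of 27305 genes with a window and 15.5% of those tested. CCAAT stood in 35 (77.8%), against 39.7% of all genes and 43.6% of those tested. Both stood in the same window in 27 (60.0%), against 7.85% of all genes and 6.57% of those tested. The STAT site letters TTCNNNGAA were found in 2 members (NUF2 and PTTG1), 4.44% against 9.38% of all genes and 8.60% of those tested. The E2F site letters TTTGGCGC, TTTCGCGC, TTTCCCGC or TTTGCCGC were found in 4 members (CDCA5, CDK1, CENPA and NUSAP1), 8.89% against 3.99% of all genes and 6.97% of those tested, a share near that of the tested genes. In some windows motif letters overlap, as the CCAAT and reverse CCAAT of HMMR do. A match is a run of letters and not a shown binding site, and a CHR or other site with letters outside those scanned would be missed.

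The upstream stretches below are the 130 bases before the RefSeq start of the 4 members with a single window, CHR and CCAAT letters and the smallest adjusted p, and of MAD1L1, which fell least and has neither. Capitals mark the CHR letters and the CCAAT letters on either strand. They lie at chr5:163460502-163460631 (HMMR, plus strand), chr16:23678759-23678888 (PLK1, plus), chr22:46296740-46296869 (GTSE1, plus), chr15:59105016-59105145 (CCNB2, plus) and chr7:2232946-2233075 (MAD1L1, minus), on GRCh38.
HMMR: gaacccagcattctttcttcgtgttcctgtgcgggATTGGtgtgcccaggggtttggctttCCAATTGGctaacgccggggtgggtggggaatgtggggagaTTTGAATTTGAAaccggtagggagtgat
PLK1: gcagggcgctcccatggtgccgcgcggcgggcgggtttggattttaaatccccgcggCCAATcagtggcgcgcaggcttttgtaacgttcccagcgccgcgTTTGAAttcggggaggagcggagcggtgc
GTSE1: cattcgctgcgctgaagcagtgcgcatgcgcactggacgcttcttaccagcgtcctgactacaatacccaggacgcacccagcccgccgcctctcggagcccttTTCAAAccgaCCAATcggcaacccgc
CCNB2: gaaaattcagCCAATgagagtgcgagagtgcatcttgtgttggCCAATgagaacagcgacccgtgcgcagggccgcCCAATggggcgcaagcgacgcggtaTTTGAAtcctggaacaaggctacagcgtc
MAD1L1: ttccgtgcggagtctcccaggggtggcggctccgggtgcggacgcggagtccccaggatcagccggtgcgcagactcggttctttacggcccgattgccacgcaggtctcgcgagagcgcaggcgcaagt
CHR letters begin 28 and 22 bases before the start of HMMR, 29 before those of PLK1 and CCNB2, and 26 before that of GTSE1. CCNB2 has CCAAT at −120, −87 and −54 in this stretch, while PLK1 has it once, at −73, and GTSE1 at −16.

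This placement was shared by many members. They were chosen by name from a class whose promoters commonly hold these motifs, so the shares describe sequence and not the shSTAT3 comparison. Among the 38 members with 1 window, 18 (47.4%) had CHR letters beginning within the 50 bases before the start, against 1.29% of 6414 other tested genes. CCAAT lay most often from 100 to 51 bases before the start, in 21 of the 38 (55.3%) against 17.8% of the others. In the 2 bins of 50 bases farthest upstream, CHR letters began in 2.63% of the members in each, against 3.01% and 2.56% of the others.

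**Figure D2:**
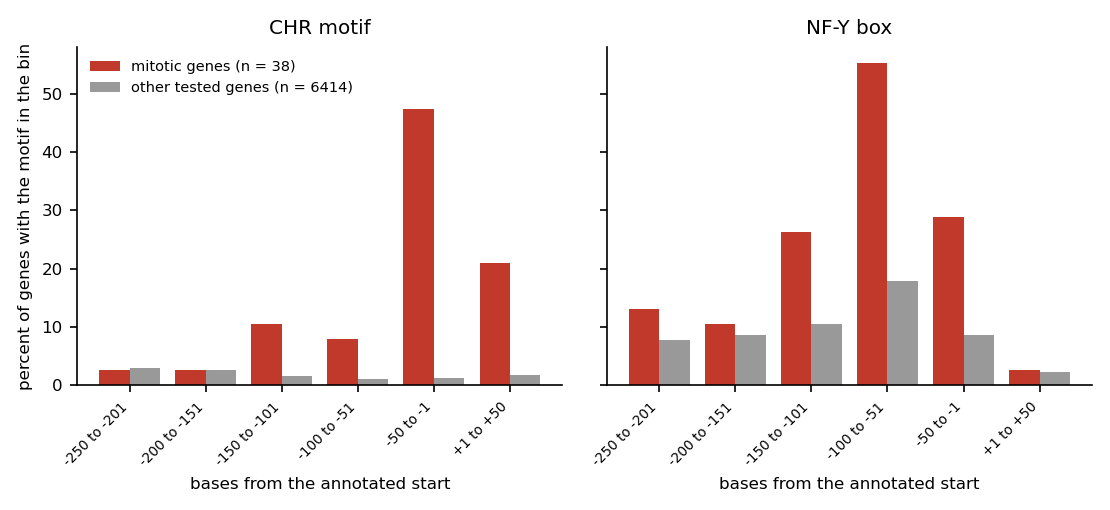
Share of genes with the motif beginning in each 50-base bin, by distance from the annotated start, for 38 mitotic genes (red) and 6414 other tested genes (grey) with 1 promoter window each; the NF-Y box is the CCAAT motif. CHR peaks in the 50 bases before the start (47.4% against 1.29%) and CCAAT in the bin before that (55.3% against 17.8%).

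Within the members, the motif groups overlapped widely in fold change. The 27 with CHR and CCAAT in a window had a median log2 fold change of −1.01 (range −2.19 to −0.35), the 5 with CHR letters alone −1.02 (−1.36 to −0.70), the 7 with CCAAT alone −0.71 (−1.25 to −0.45) and the 5 with neither −0.68 (−1.004 to −0.25). PLK4 has the motifs in different windows, and 13 members were not scanned. MYBL2, with neither, and CCNA2 and CCNB1, with CCAAT alone, fell about as far as the median of the first group, at −1.004, −1.07 and −0.94 per the authors' deposited table. These groups go by the scanned letters only, so genes without them may still hold a CHR of other letters. CKAP5, with both motifs, was at −0.35 per the authors' deposited table. No test was made across genes, which are not replicates.

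**Figure D3:**
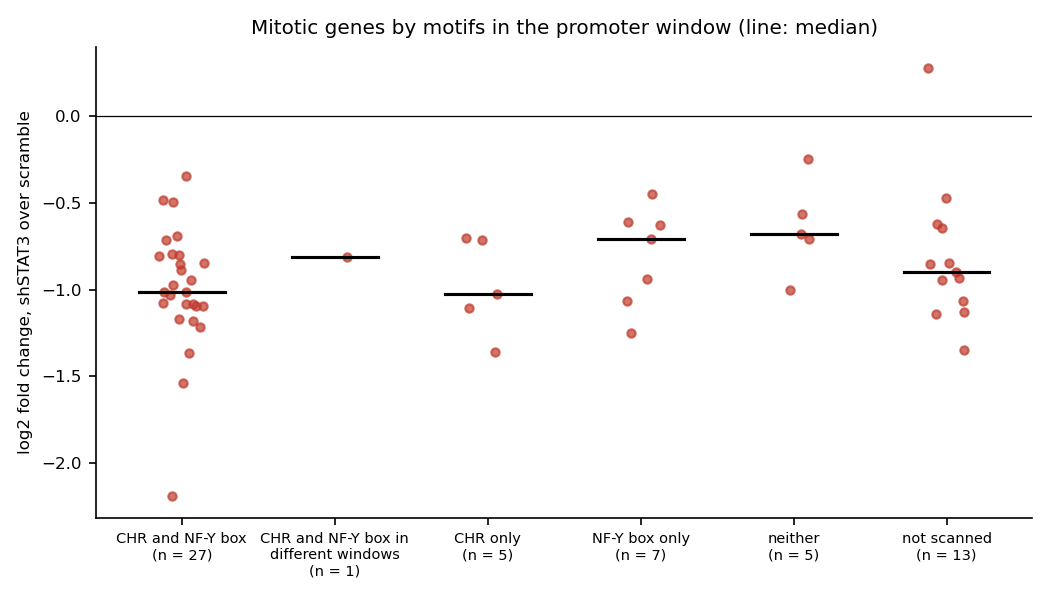
Log2 fold change of each mitotic gene, shSTAT3 over scramble, by the motifs in its promoter window, with the median of each group as a line; 13 genes were not scanned. The groups overlap, with medians of −1.01 and −1.02 for the groups with CHR and −0.71 and −0.68 for those with the NF-Y box alone or neither.

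The transcription factors of the program were both lower. MYBL2 (B-MYB), which activates G2/M genes with MuvB, fell to 49.9% of scramble around a mean of 2266 normalized counts per the authors' deposited table (log2 fold change −1.004 ± 0.073 SE, adjusted p = 6.15e-41). FOXM1, a forkhead factor that acts on the same promoters, fell to 55.5% per the authors' deposited table (−0.85 ± 0.079, adjusted p = 3.16e-25). Of FOXM1's exon bases 15.9% are shared with ITFG2 on the opposite strand, which rose by 0.54 per the authors' deposited table, and whether counting used strand is not given in the sources used here. Genes of the complexes these factors work with were mixed. Of 13 DREAM and MuvB genes tested 6 fell (46.2%, against 23.2% of all tested genes) and 1 rose, with a median of −0.11. RBL1 (p107), TFDP1 and LIN9 had log2 fold changes of −0.82, −0.50 and −0.86, while E2F4, the E2F of the repressing complex, was at 0.30 per the authors' deposited table (adjusted p = 0.00451). RBL2 (p130) did not pass, at 0.16 per the authors' deposited table (adjusted p = 0.128).

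All 13 kinases, cyclins and CDC25 phosphatases fell, against 23.2% of all tested genes, with a median log2 fold change of −0.93. NEK2, a kinase of centrosome separation, and PLK1, the main Polo-like kinase, fell furthest, to 42.0% and 43.0% of scramble per the authors' deposited table (adjusted p = 1.63e-20 and 2.59e-46). CDK1, the kinase of mitotic entry, and its cyclins CCNB2, CCNA2 and CCNB1 lay close together, at −1.09, −1.10, −1.07 and −0.94 per the authors' deposited table, with standard errors of 0.082 to 0.096. AURKA, which matures the centrosomes, fell to 52.5% and AURKB, the kinase of the chromosomal passenger complex, to 64.7% per the authors' deposited table. Their 95% intervals, −1.13 to −0.73 and −0.82 to −0.43, overlap, and their difference was not tested. PLK4, which starts centriole duplication, was at −0.81 per the authors' deposited table.

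Both brakes on CDK1 fell with it. PKMYT1, which phosphorylates CDK1 at membranes, was at −0.90 and WEE1, its nuclear counterpart, at −0.65 per the authors' deposited table (adjusted p = 1.96e-17 and 2.45e-10). The phosphatases that release the brakes were at −0.80 for CDC25C and −0.49 for CDC25B per the authors' deposited table. CDC25C had the lowest mean of all members, 133 normalized counts, and the widest interval, −1.15 to −0.45 per the authors' deposited table. PKMYT1 shares 24.5% of its exon bases with PAQR4 on the opposite strand, which also fell, by 0.62 per the authors' deposited table, CCNA2 9.08% with EXOSC9, which fell by 0.63, and CDC25C 8.78% with FAM53C, which was at 0.25 per the authors' deposited table. Among members of other roles, NUSAP1 and PRC1 share 62.2% and 57.6% of their exon bases with another protein-coding gene model of GENCODE 29 on the same strand, and BUB1B 10.2% with the read-through gene BUB1B-PAK6. PLK1 shares 11.6% with an antisense gene. None of these 4 overlapping genes was found by symbol in the authors' deposited table. The annotation used for counting and the handling of shared exons are not given in the sources used. Whether the overlaps touched any counts is thus not known, and the values of NUSAP1 and PRC1 may be less certain.

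Of the 6 spindle checkpoint genes 5 fell and 1 rose, against 23.2% and 21.3% of all tested genes. Their median was −0.94, and the members nearest to 0, MAD1L1 and BUB3, are among them. TTK (MPS1), the kinase that starts the checkpoint at the kinetochore, BUB1, a kinase that docks it there, and BUB1B (BUBR1), which binds the APC/C activator, fell to 45.3%, 48.9% and 49.2% of scramble per the authors' deposited table (adjusted p = 1.26e-18, 5.22e-32 and 4.51e-28). MAD2L1 (MAD2), whose change of shape carries the signal, fell to 55.6% per the authors' deposited table (adjusted p = 4.6e-11). MAD1L1 (MAD1), the receptor of MAD2 at the kinetochore, was at −0.25 with a 95% interval of −0.46 to −0.039 per the authors' deposited table (adjusted p = 0.0463). BUB3, the adaptor that carries BUB1 and BUBR1, rose by 0.27 on the log2 scale, to 121% of scramble, with a 95% interval of 0.068 to 0.48 per the authors' deposited table (adjusted p = 0.0233). BUB3 was also the most abundant member per length, at 1133 normalized counts per kilobase of GENCODE 29 exons, ahead of NUSAP1 with 892. Neither call of MAD1L1 and BUB3 holds at an adjusted p of 0.01.

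**Figure D4:**
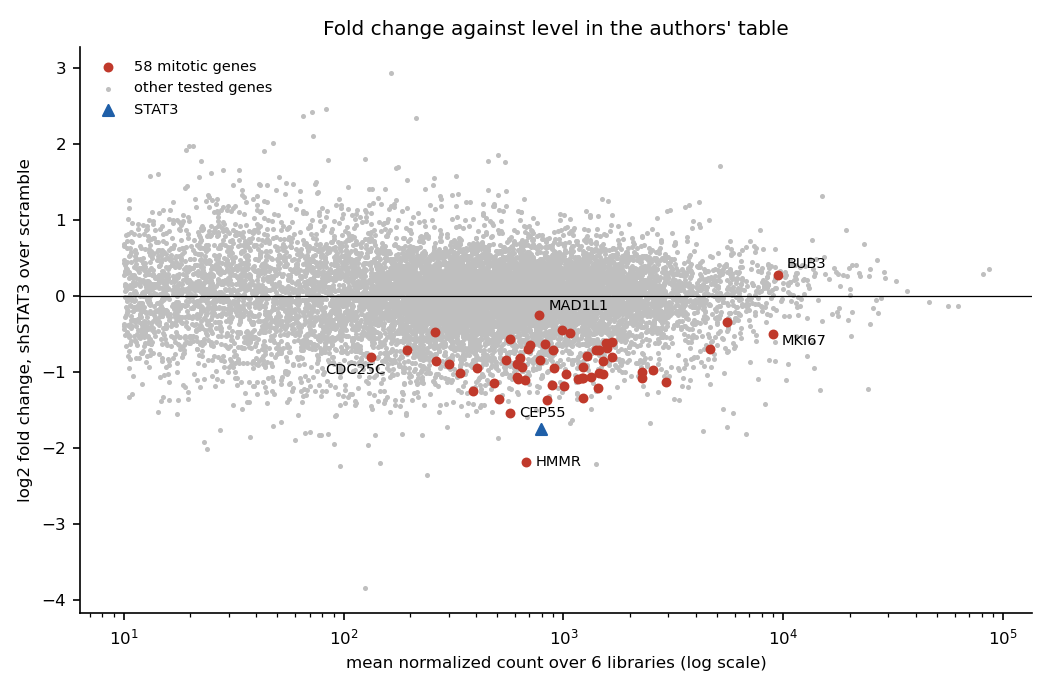
Log2 fold change, shSTAT3 over scramble, against mean normalized count over 6 libraries (log scale) for the 58 mitotic genes (red), other tested genes (grey) and STAT3 (triangle). HMMR lies below STAT3, the 2 most abundant members BUB3 and MKI67 lie at 0.27 and −0.50.

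Genes that activate the APC/C or carry out anaphase fell in 5 of 5 cases, with a median of −0.79. CDC20, the mitotic activator of the APC/C, fell to 49.6% of scramble, and UBE2C, the enzyme that starts its ubiquitin chains, to 55.5% per the authors' deposited table (adjusted p = 1.11e-24 and 5.26e-17). UBE2S, which extends those chains, was at −0.61 per the authors' deposited table. ESPL1 (separase), the protease that cuts cohesin, was at −0.79, and PTTG1 (securin), which holds separase inactive, at −0.45 per the authors' deposited table. Their intervals, −0.97 to −0.61 and −0.63 to −0.28, overlap slightly, and their difference was not tested. The near copies PTTG2 and PTTG3P had means of 1.19 and 1.42 normalized counts against 980 for PTTG1 per the authors' deposited table. Of 18 subunits, activators and regulators of the APC/C outside the members 4 fell (22.2%, near the 23.2% of all tested genes) and 3 rose, with a median of 0.05. FBXO5 (EMI1), an APC/C inhibitor, MAD2L2 and CDC27 were at −0.75, −0.36 and −0.40, ANAPC10 fell by 0.45, and the subunit genes ANAPC1, CDC23 and ANAPC7 rose by 0.25, 0.24 and 0.24 per the authors' deposited table.

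All 11 kinetochore and centromere members fell, with a median of −0.86. NUF2 and NDC80, which dimerize in the complex that grips microtubules, fell to 38.9% and 46.4% of scramble per the authors' deposited table (adjusted p = 1.91e-30 and 1.62e-27). Their partners in the complex, SPC25 and SPC24, were at −0.86 and −0.71 per the authors' deposited table. NUF2, at −1.59 to −1.14, and SPC24, at −1.003 to −0.42, do not overlap in their 95% intervals. CENPA, the centromeric histone H3 variant, and HJURP, the chaperone that deposits it, were at −1.01 and −0.94 per the authors' deposited table. The inner kinetochore genes CENPH and CENPM were at −0.95 and −0.47 (adjusted p = 1.18e-09 and 0.00219), and the outer proteins CENPE, a kinesin motor, and CENPF at −0.71 and −0.69 per the authors' deposited table. KNSTRN, which helps loosen sister chromatids, was at −0.57 per the authors' deposited table. A wider list of 32 kinetochore genes that are not members had 23 lower and 1 higher, with a median of −0.47. Its share called lower was 71.9%, against 23.2% of all tested genes. CENPU, KNL1 (listed under its older symbol CASC5) and ITGB3BP (CENPR) were at −1.31, −0.86 and −1.37, and PMF1, of the MIS12 complex, rose by 0.60 per the authors' deposited table.

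All 3 partners of AURKB in the chromosomal passenger complex fell, against 23.2% of all tested genes, with a median of −0.81. BIRC5 (survivin) fell to 39.2% of scramble per the authors' deposited table (adjusted p = 9.42e-51), the scaffold INCENP to 57.2% and CDCA8 (borealin) to 60.9% per the authors' deposited table. The interval of BIRC5, −1.52 to −1.18, lies below those of AURKB, INCENP and CDCA8, which overlap each other.

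Spindle and microtubule genes had the lowest median of the 9 role classes, −1.13, with 9 of 9 lower. HMMR, a spindle and hyaluronan-binding protein, was at −2.19 with a 95% interval of −2.42 to −1.96 around a mean of 677 normalized counts per the authors' deposited table (adjusted p = 1.8e-72). It was 6th from the bottom of all tested genes by fold, and its interval overlapped that of no other member; the next, CEP55, was 0.65 higher on the log2 scale. GTSE1, which stabilizes spindle microtubules, DLGAP5 (HURP), which bundles kinetochore fibres, and CKAP2L were at −1.37, −1.18 and −1.17 per the authors' deposited table. TPX2, the activator of AURKA on the spindle, fell to 45.7% around a mean of 2916 normalized counts per the authors' deposited table (adjusted p = 9.33e-45). ASPM, which focuses spindle poles, and NUSAP1, which links microtubules to chromosomes, were at −1.08 and −0.98, and CKAP2 at −0.68 per the authors' deposited table. CKAP5 (ch-TOG), a microtubule polymerase that also acts outside mitosis, was at −0.35 with an interval of −0.49 to −0.21 per the authors' deposited table. The 37 tested spindle and centrosome genes outside the members had 23 lower and 3 higher, with a median of −0.48. Their share called lower was 62.2%, against 23.2% of all tested genes. TACC3, HAUS4 and TACC1 were at −0.88, −0.94 and −1.03, while CLASP1, TUBGCP6 and NUMA1 rose by 0.43, 0.40 and 0.24 per the authors' deposited table.

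All 5 cytokinesis genes fell, against 23.2% of all tested genes, with a median of −1.08. CEP55, which recruits the abscission machinery to the midbody, fell to 34.5% of scramble per the authors' deposited table (log2 fold change −1.54 ± 0.12 SE, adjusted p = 2.01e-36). ECT2, which activates RhoA at the equator, and PRC1, which bundles the central spindle, were at −1.09 and −1.08, while ANLN (anillin) and RACGAP1, the partner that brings ECT2 to the central spindle, were at −0.70 and −0.62 per the authors' deposited table. The intervals of PRC1, −1.26 to −0.90, and RACGAP1, −0.78 to −0.46, do not overlap. The pseudogene RACGAP1P had a mean of 0.176 per the authors' deposited table.

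Of the genes bound to mitotic chromosomes or named for cell division association, CDCA2 (Repo-Man), CDCA3 and CDCA5 (sororin) were at −1.07, −0.89 and −0.71 per the authors' deposited table. MKI67, the proliferation marker that coats mitotic chromosomes, fell to 70.9% of scramble around a mean of 8926 normalized counts per the authors' deposited table (log2 fold change −0.50 ± 0.069 SE, adjusted p = 1.62e-11). Level and fold change were only weakly related across the 58 members, with Pearson's r of 0.18 and Spearman's rho of 0.10 between log2 mean per kilobase and log2 fold change, given as a description since all members share the same libraries.

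Among other mitotic kinases, phosphatases and their regulators, 17 of 25 tested fell (68%, against 23.2% of all tested genes) and 2 rose, with a median of −0.53. SGO2 (under the symbol SGOL2), a guardian of centromeric cohesion, and the kinases PBK and MELK were at −1.10, −1.06 and −0.76, while the Polo-like kinases PLK2 and PLK3 rose by 0.59 and 0.34 per the authors' deposited table (adjusted p = 2.06e-07 and 0.0489). Over the 5 lists of mitotic genes outside the members, 73 of 125 tested genes (58.4%) fell and 10 rose, with a median of −0.37. Lists of neighbouring processes stood nearer to the members: 12 of 12 mitotic kinesins fell (median −0.92), 8 of 8 condensin genes (−0.86) and 36 of 37 DNA replication genes (−0.81). KIF20A, KIF15 and KIF14 were at −1.27, −1.30 and −1.14, NCAPH, NCAPG and NCAPD2 at −1.26, −1.20 and −0.84, and MCM6, MCM5 and CDT1 at −1.18, −0.996 and −1.05 per the authors' deposited table. All these lists share the same 6 libraries, and no difference between them was tested.

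**Figure D5:**
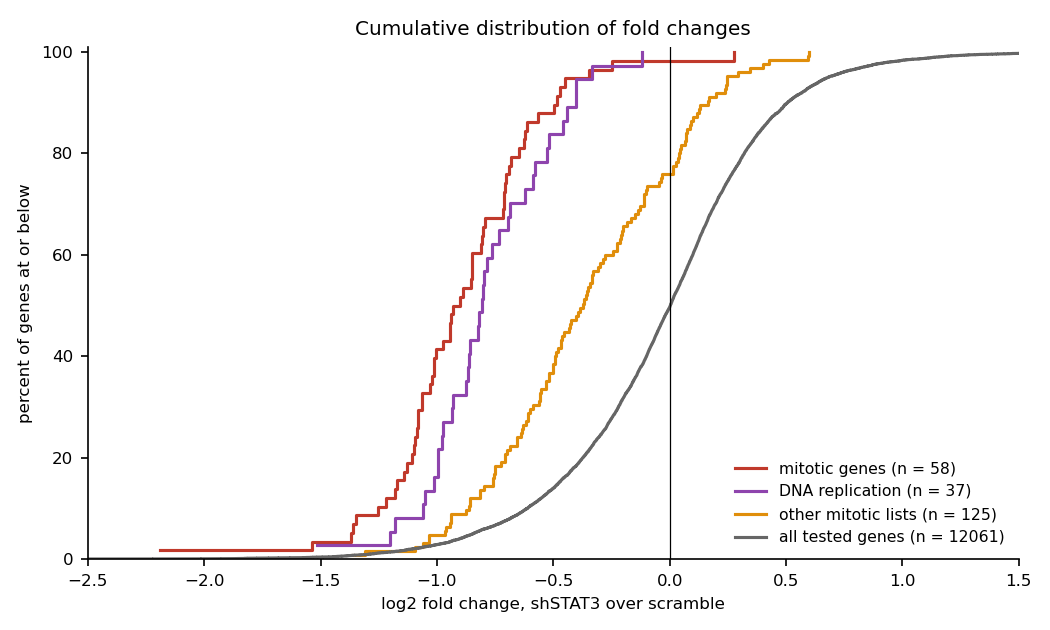
Cumulative share of genes by log2 fold change, shSTAT3 over scramble, for the 58 mitotic genes, 37 DNA replication genes, 125 tested genes of the other mitotic lists and all 12061 tested genes. The curves of the mitotic and replication genes have medians of −0.92 and −0.81 and lie left of 0 except for BUB3, a mitotic gene at 0.27, and the other mitotic lists lie between them and all tested genes.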

How the data were processed

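RNA of 6 REH cultures, 3 with shSTAT3 and 3 with a scramble hairpin, was sequenced from TruSeq RNA v2 libraries, per the labels' protocols. Tools named, without role or order, are DESeq2, featureCounts, Bowtie2, Trimmomatic, Picard and bcl2fastq (2.19), with build hg38, per the submitters' processing notes. Settings, annotation and strand use are not given by the sources used here. The deposited table holds a normalized signal per gene (read counts over size factors, averaged over the libraries by the authors), log2 fold changes and p-values, raw and adjusted, per the file headers.

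Calls use the authors' adjusted p under 0.05, over all 12061 tested genes; edgeR, planned for values per library, was not run because the table has none. Benjamini-Hochberg adjustment of the deposited p-values gave their adjusted values within 2.87e-07. Standard errors are each fold change over the normal quantile that its p implies, so they and the 95% intervals belong to the authors' estimates. Whether intervals of different genes overlap is a description. It is no test of a difference between genes, which share the same libraries, and overlapping intervals do not mean equal fold changes. Whether the authors shrank their fold changes is not given in the sources used here. If they did, falls and rises may be understated, and the errors and intervals are only approximate. Percent of scramble is the fold change on a linear scale. Another 5640 genes with a p-value have no adjusted p. P-values measure the spread between 3 cultures a group. Size factors came from genes with 1 read in all, whose means take 6 values, and these libraries were matched to no sample.

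Positions and exon lengths are from GENCODE 29 and promoter windows from RefSeq, both on GRCh38. Members, lists and motifs were chosen with earlier results of these data known. Named are STAT3, every member, and in the other lists the 3 called genes with the smallest adjusted p and those called against the majority; RBL2, ANAPC10 and the MAD1L1 sequence were added after their values were seen. Scripts were tested on simulated data. Versions were matplotlib 3.10.9, scipy 1.17.1, pandas 2.3.3, numpy 2.4.6 and Python 3.11.15.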

Additional observations from a re-analysis of the deposited data

How the results depend on the processing

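The count of members called lower was 57 and stayed between 50 and 57 under 7 alternatives: 56 at an adjusted p of 0.01 or when all genes with a p-value were adjusted together, 55 at 0.001, 54 with the Bonferroni method, 50 with at least 1.5-fold asked, and 57 both with a mean of at least 50 and with fold changes centred on genes with a mean of at least 1000. MAD1L1 was lost under 5 of these settings. The count of members called higher was 1 (BUB3) and became 0 at an adjusted p of 0.01, at 0.001, with Bonferroni and with at least 1.5-fold asked; at 0 the unadjusted p of BUB3 by the authors' DESeq2 test was still 0.00907. Centring moved every fold change by 0.019, gave a median of −0.93, and gave adjusted p-values of 0.0309 for MAD1L1 and 0.0358 for BUB3. No member changed direction. The role counts, the counts of the other lists and the motif shares each moved by less than 1.5 times or stayed within their binomial interval; the adjusted p of 0.01 for the other lists and the genes with 1 window for the motifs were chosen after the data were seen.

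No paired analysis was possible because the table holds no values per library; for the same reason leaving out replicates, other normalizations and a filter on low counts were not run. A single unusual library or a difference between experiments can therefore not be examined directly behind these fold changes. No member is among the 74 genes above whose p is missing despite a fold change. Depth is known only from the size factors and single-read genes above, which were matched to no sample. Fold changes of single-read genes lie near 0, as shrunken estimates do.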

Other observations

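The CHR letters were also looked at outside the members, a choice made after their placement was seen. Of 83 other tested genes with 1 window and CHR letters within the 50 bases before the start, 36 (43.4%) were lower and 13 (15.7%) higher in the shSTAT3 cells, against 22.6% lower and 21.5% higher of 6331 without. Of the 83, 74 belong to none of the lists used here, and of these 27 (36.5%) were lower and 13 (17.6%) higher, with a median log2 fold change of −0.02. The lists do not hold every cell cycle gene, so the 74 are not a set free of them. GAS5, HLA-DPB1 and CD52 are among the 13 that rose, at 1.20, 0.91 and 1.40, and DEK, ASF1B and IL1B among those that fell, at −1.11, −0.87 and −1.41 per the authors' deposited table; all 6 were named after their values were seen.

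Within the members with 1 window, the 18 with CHR letters in those 50 bases had a median log2 fold change of −1.02 and the 20 without −0.94. These are descriptions over genes of the same libraries, with no test.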
